A study of Homo sapiens with 4 samples.

Results

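Aminoacyl-tRNA synthetases are the enzymes that load amino acids onto transfer RNAs. The genes described here were chosen by name from the deposited expression table: 34 synthetase genes of 23577 genes, of which 19 encode cytosolic enzymes and 15 encode mitochondrial enzymes. The levels come from 4 human leiomyosarcoma cell lines, RKN, SKLMS1, SKN and SKUT1, each grown without treatment in DMEM (Dulbecco's modified Eagle's medium) supplemented with fetal bovine serum and antibiotics, and each measured by poly(A) RNA sequencing in 1 library. Leiomyosarcoma is a malignant tumour with features of smooth muscle, and each library stands for a single culture of an established line, with no normal smooth muscle beside it. With 1 library per line there was no replicate check and no test: every difference below is between libraries, and a difference between lines cannot be told apart from a difference between cultures or preparations.

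A synthetase recognises its amino acid, activates it with ATP and joins it to the matching tRNA, so each amino acid needs its own enzyme. Cytosol and mitochondria mostly use separate enzymes, and both sets are encoded in the nucleus. Mitochondrial enzymes, most of them marked by a 2 at the end of the symbol, are made in the cytosol, imported, and serve the small number of respiratory chain proteins that are translated inside mitochondria. Several cytosolic synthetases are bound in a multisynthetase complex. When amino acids run short, uncharged tRNA activates the kinase GCN2, eIF2 is phosphorylated, and translation of the transcription factor ATF4 goes up. ATF4 then drives genes for amino acid uptake and synthesis and for many cytosolic synthetases.

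Levels are given as FPKM (sequenced fragments divided by transcript length and by library size), which takes gene length into account and can therefore be compared between genes. A difference of a line is its log2(FPKM + 1) minus the mean of the other 3 lines on that scale, so that 1 stands for 2-fold. Genes entered the comparison when any line reached an FPKM of 1, and 13713 did. All 34 synthetases were among them, and the lowest value of any was 1.41. The tabulated FPKM columns summed to between 446954 in RKN and 619584 in SKUT1, and each library had from 6793 to 7534 genes listed at 0. Low values pointed to about 21900000 to 30900000 reads per library, an estimate that rests on an annotation other than the authors'. Of the 10 smooth muscle markers, ACTA2 was at 84.7 (RKN), 127 (SKLMS1), 1.37 (SKN) and 1085 (SKUT1), and their summed FPKM ran from 98.4 in SKN to 6319 in SKUT1. The late contractile markers DES and MYH11 stayed at or under 1.15 in every line, and SKN held the lowest value for 6 of the 10 markers. Of 6 leukocyte markers, 1 reached an FPKM of 1 (CD14, at most 1.64), and PTPRC was at most 0.213. Of 5 endothelial markers, PECAM1, CDH5 and VWF were at most 0.293, but KDR was at 4.91 in SKN and TEK at 39.6 in SKUT1. Of 7 epithelial markers, EPCAM was at most 1.80, while the keratin genes were high in different lines: KRT18 from 7.84 in RKN to 283 in SKN, KRT8 at 268 in SKLMS1 and 265 in SKN, and KRT19 from 0.342 in SKN to 146 in SKLMS1. Whether this spread in lineage markers bears on the synthetases was not tested.

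The synthetases together took a near-constant part of the summed FPKM, 0.342% (RKN), 0.371% (SKLMS1), 0.371% (SKN) and 0.375% (SKUT1). Within that sum the cytosolic enzymes were the abundant class in every line. Their median FPKM was 64.9 (RKN), 84.1 (SKLMS1), 71.2 (SKN) and 94.7 (SKUT1). The mitochondrial median was 14.7 (RKN), 9.81 (SKLMS1), 10.4 (SKN) and 8.05 (SKUT1). The cytosolic median was thus 4.42 times the mitochondrial one in RKN, 6.83 times in SKN, 8.57 times in SKLMS1 and 11.8 times in SKUT1. RKN stood at the low end of this order, with the lowest cytosolic and the highest mitochondrial median as deposited. SKUT1 stood at the high end, with the opposite pair. The cytosolic ends depend on the unequal column sums, 446954 in RKN and 619584 in SKUT1. Relative to these sums SKN had the lowest cytosolic median and SKLMS1 the highest. The mitochondrial ends and the ratios stayed the same. The classes overlapped in each line: in each of them 2 mitochondrial enzymes lay above the lowest cytosolic enzyme.

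**Figure D1:**
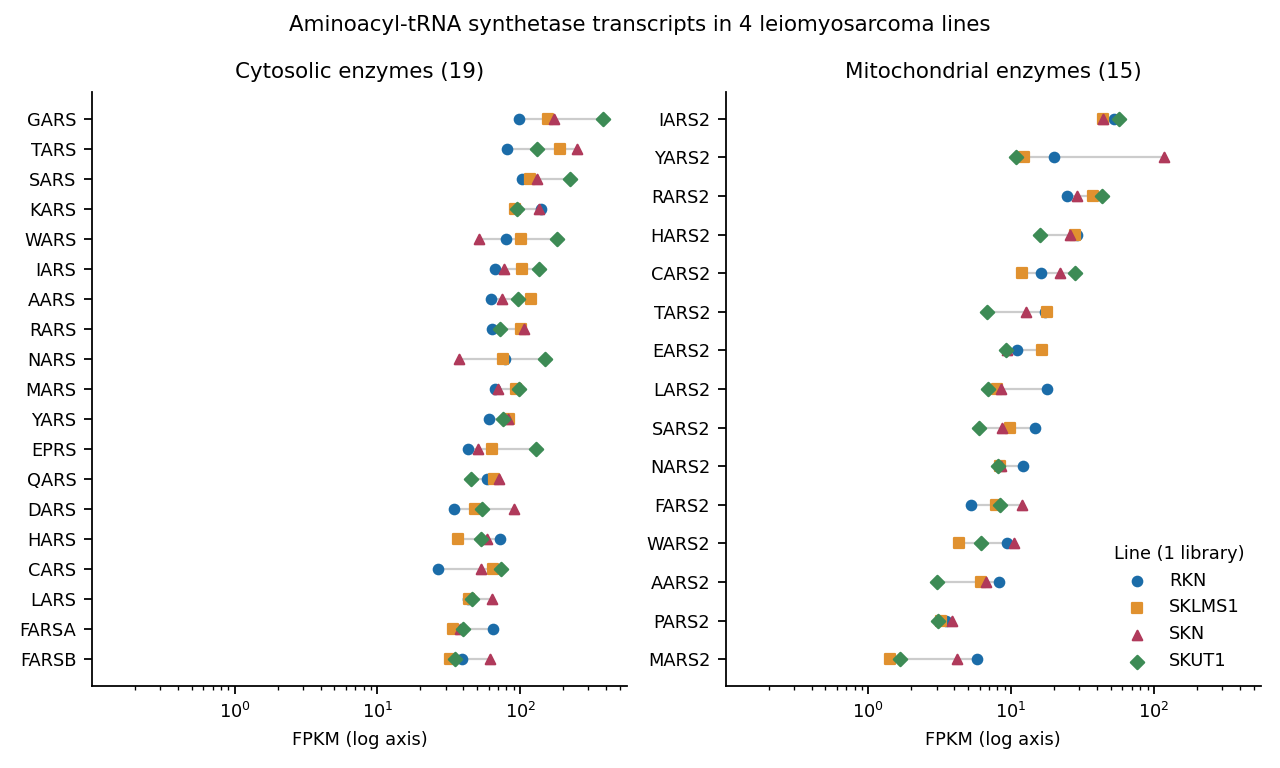
FPKM of the 19 cytosolic and 15 mitochondrial synthetases in each of the 4 lines, on a log axis, with 1 point per gene and line. Cytosolic points lie between 26.6 and 378, and mitochondrial points reach at most 56.6 except YARS2 in SKN, which lies at 118 among the cytosolic enzymes.

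The highest and the lowest line were at least 2-fold apart for 18 of the 34 synthetases, or 52.9%, against 67.2% of all compared genes. The count was 9 of 19 among the cytosolic and 9 of 15 among the mitochondrial enzymes. Among genes with a mean FPKM of 10 or more, 63.4% were that far apart. The share among the synthetases lay below both of these backgrounds. The steadiest was PARS2, which charges mitochondrial tRNA with proline, at 3.51 (RKN), 3.20 (SKLMS1), 3.86 (SKN) and 3.07 (SKUT1). IARS2, the isoleucine enzyme of mitochondria and the most abundant of its class by mean level, was nearly as steady, at 52.2 (RKN), 43.9 (SKLMS1), 44.2 (SKN) and 56.6 (SKUT1). The widest range belonged to YARS2, the tyrosine enzyme of mitochondria, whose highest line was 11.0 times its lowest.

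RKN had the low end of the cytosolic set. It held the lowest value for 12 of the 19 cytosolic genes, where 26.7% of all compared genes were lowest in RKN, and the highest for 3, where the share over all genes was 28.4%. The median difference of the cytosolic genes in RKN was -0.40, beside -0.04 over all genes. In the same library 6 of 15 mitochondrial genes were highest and 2 were lowest, with a median difference of 0.34. When the columns were rescaled to the same sum, which moved the median of all genes in RKN by 0.28, the cytosolic median lay 0.35 below that of all genes and the mitochondrial median 0.40 above it. Without the rescaling these distances were -0.36 and 0.38. The number of cytosolic genes lowest in RKN depended on the scaling, and was 5 after the rescaling, beside 19.6% of all compared genes.

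At least 2-fold lower in RKN were 3 synthetases, all cytosolic (16.6% of all compared genes), and at least 2-fold higher were 2, both mitochondrial (11.6%). CARS, the cysteine enzyme, was at 26.6 (RKN), 64.1 (SKLMS1), 53.3 (SKN) and 72.9 (SKUT1), a difference of -1.21. TARS, the threonine enzyme, was at 80.8 (RKN), 189 (SKLMS1), 250 (SKN) and 131 (SKUT1), a difference of -1.18. Both lay below the other 3 lines, which for TARS differed widely among themselves. GARS, the glycine enzyme, was at 97.8 in RKN and 156 in SKLMS1, and its difference of -1.14 shrank to -0.74 when SKUT1 was left out. After rescaling to the same sum none of these 3 was 2-fold lower. LARS2, the leucine enzyme of mitochondria, was at 17.9 (RKN), 7.93 (SKLMS1), 8.53 (SKN) and 6.86 (SKUT1), a difference of 1.11 with RKN above all the other lines. MARS2, the methionine enzyme of mitochondria, was at 5.71 (RKN), 1.41 (SKLMS1), 4.17 (SKN) and 1.67 (SKUT1). RKN and SKN formed its high pair, and the difference of 1.06 in RKN was 0.85 when SKLMS1 was left out. With a pseudocount of 5 neither gene was 2-fold higher in RKN, the differences being 0.84 for LARS2 and 0.55 for MARS2. By the depth estimate the MARS2 values rest on about 533, 118, 287 and 111 reads.

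**Figure D2:**
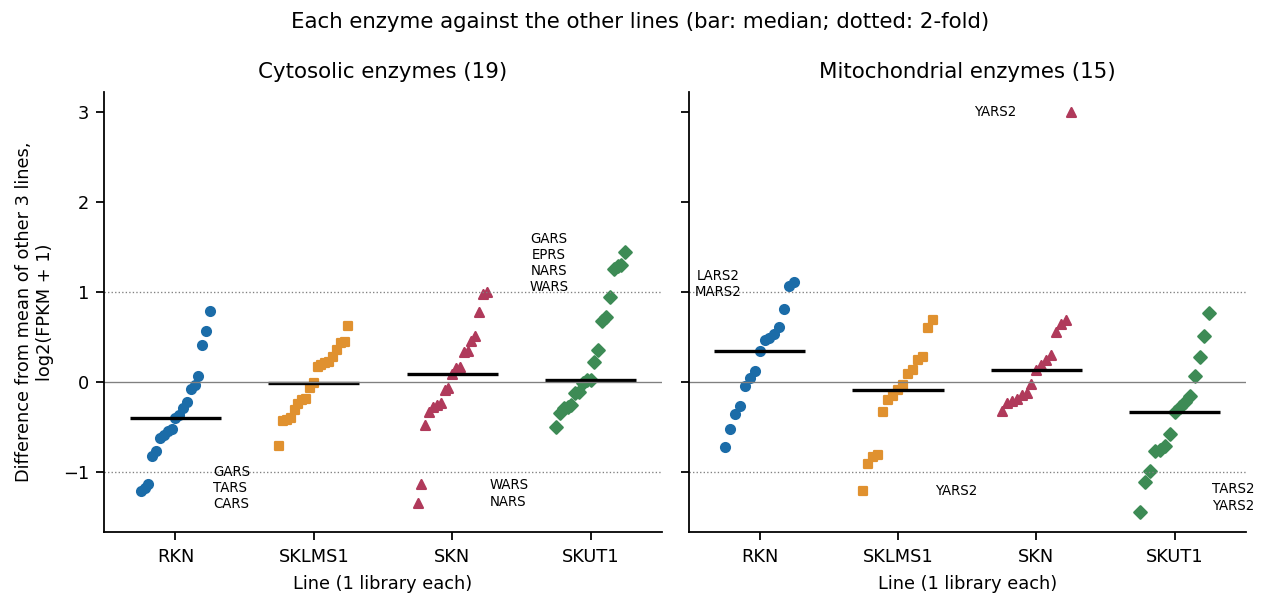
Difference of each synthetase in each line from the mean of the other 3 lines, on the log2(FPKM + 1) scale, for cytosolic and mitochondrial enzymes, with the list median as a bar and 2-fold as dotted lines. The cytosolic median of RKN lies at -0.40 and the mitochondrial one at 0.34, while SKUT1 has 4 cytosolic genes above the upper line and 2 mitochondrial genes below the lower line.

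SKUT1 showed the reverse arrangement in its extremes. It held the highest value for 8 of 19 cytosolic genes (30.8% of all compared genes were highest in SKUT1) and the lowest for 1 (27.9% of all). Of the mitochondrial genes, 9 of 15 were lowest in SKUT1 and 3 were highest. The cytosolic difference in SKUT1 was uneven: its median was 0.02 and its mean 0.34, as 4 genes were far above the other lines and 8 of the 19 lay below them. Rescaling to the same sum moved the median of all genes in SKUT1 by -0.29, and the cytosolic median there then turned to -0.31, level with all genes at -0.31. After it 6 cytosolic genes were highest in SKUT1, beside 21.9% of all compared genes, and 7 were lowest, beside 38.2%. Of the 15 mitochondrial genes 10 were lowest there, with their median at -0.34 relative to all genes. In SKUT1, 2-fold or more above the other lines were 4 cytosolic genes and no mitochondrial one (17.9% of all genes). At least 2-fold lower were 2 mitochondrial genes and no cytosolic one (13.1%).

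GARS was the most abundant of these, at 97.8 (RKN), 156 (SKLMS1), 171 (SKN) and 378 (SKUT1), a difference of 1.45 in the last. EPRS, a single protein that carries both the glutamate and the proline enzyme and sits in the multisynthetase complex, was at 43.3 (RKN), 62.9 (SKLMS1), 50.6 (SKN) and 129 (SKUT1). In SKUT1 both genes exceeded each other line, taken alone, by 2-fold or more. NARS, the asparagine enzyme, was at 78.4 (RKN), 75.1 (SKLMS1), 37.2 (SKN) and 149 (SKUT1). WARS, the tryptophan enzyme, was at 79.8 (RKN), 101 (SKLMS1), 51.1 (SKN) and 179 (SKUT1). These 2 genes shared their order at both ends, with SKUT1 highest and SKN lowest, and their differences were 1.29 and 1.26 in SKUT1 and -1.34 and -1.13 in SKN. Of these 4 high genes, 1 remained so after rescaling to the same sum (GARS, with a difference of 1.12) and none after quantile normalization. The low SKN values of NARS and WARS stayed 2-fold lower under all 3 scalings, but that of WARS was -0.80 when SKUT1 was left out. The high SKUT1 values of NARS and WARS came to 0.95 and 0.99 when SKN was left out.

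Among mitochondrial enzymes, TARS2, which charges threonine tRNA, was at 17.2 (RKN), 17.8 (SKLMS1), 12.6 (SKN) and 6.72 (SKUT1). Its difference in SKUT1 was -1.12, and it stayed 2-fold lower there under all 3 scalings but was -0.82 with a pseudocount of 5. SARS2, the serine enzyme, had the same lowest line, at 14.7 (RKN), 9.81 (SKLMS1), 8.58 (SKN) and 5.92 (SKUT1). AARS2, the alanine enzyme, just missed the 2-fold mark in SKUT1, with a difference of -0.99 and values of 8.22 (RKN), 6.18 (SKLMS1), 6.65 (SKN) and 3.01 (SKUT1). CARS2 and RARS2 went the other way and were highest in SKUT1, at 28 and 43.0, which held for CARS2 alone after rescaling to the same sum.

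SKLMS1 lay between the other lines as deposited. Its median differences were -0.01 for the cytosolic and -0.09 for the mitochondrial set. It held the highest value of 2 cytosolic and 2 mitochondrial genes (19.7% of all compared genes) and the lowest of 4 and 4 (20.8%). After rescaling to the same sum its cytosolic median difference was the highest, at 0.09, beside -0.11 (RKN), 0.03 (SKN) and -0.31 (SKUT1). In that scaling it held the highest value of 6 cytosolic and 2 mitochondrial genes (21.8% of all compared genes). The lowest values it held were then those of 1 and 2 (16.6%). The calls that follow are as deposited. No synthetase was at least 2-fold higher there (10.7% of all genes), and 1 was at least 2-fold lower (9.83%), namely YARS2. That call came from the high SKN value of the gene: without SKN the difference of SKLMS1 was -0.23 in place of -1.21. The same held for YARS2 in SKUT1, where the difference of -1.45 became -0.50 without SKN.

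SKN held the highest value of 6 cytosolic and 4 mitochondrial genes (21.1% of all compared genes), and the lowest of 2 and 0 (20.9%). After rescaling to the same sum it held the highest value of 4 and 2 (17.9% of all compared genes). It then held the lowest of 6 and 2 (22.0%). NARS and WARS, the 2 lowest there as deposited, were the synthetases at least 2-fold lower in SKN (10.8% of all genes). YARS2 was the only synthetase at least 2-fold higher there (9.97%). DARS, the aspartate enzyme, lay just under that mark with a difference of 0.999, at 34.4 (RKN), 48.2 (SKLMS1), 90.5 (SKN) and 54.0 (SKUT1). TARS followed with a difference of 0.98.

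YARS2 was at 19.8 (RKN), 12.4 (SKLMS1), 118 (SKN) and 10.8 (SKUT1). SKN was 5.96 times the next highest line, and the difference of 3.0 was the only one among the synthetases past 4-fold. The cytosolic tyrosine enzyme YARS varied least of its class, at 60.9 (RKN), 84.1 (SKLMS1), 82.4 (SKN) and 76.0 (SKUT1). In SKN, the gene for the mitochondrial enzyme was therefore above its cytosolic counterpart, with a ratio of YARS to YARS2 of 0.697, where the other lines had 3.07 (RKN), 6.80 (SKLMS1) and 7.04 (SKUT1).

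The genes next to YARS2 on chromosome 12 were high in the same line. These neighbours, and how many to count, were chosen after the values were seen, and their order was taken from RefSeq. Among the 15 nearest measured coding genes on the side of the short arm's end, 13 were highest in SKN and 12 were at least 2-fold higher there, with a median difference of 2.09. Among the 30 nearest on that side these counts were 26 and 25. Over all compared genes 21.1% were highest in SKN and 9.97% were at least 2-fold higher there. On the other side, which runs into the long arm, 8 of the nearest 15 were highest in SKN and 3 were at least 2-fold higher, with a median difference of 0.40, and over 30 genes the counts stayed at 8 and 3 with a median of -0.11. DNM1L, the adjacent gene, which encodes a GTPase of mitochondrial fission, was at 32.2 (RKN), 28.9 (SKLMS1), 147 (SKN) and 47.0 (SKUT1). IPO8, a nuclear import receptor gene of the same stretch, was at 13.5 (RKN), 8.33 (SKLMS1), 82.8 (SKN) and 14.5 (SKUT1). BICD1, which encodes an adaptor of the dynein motor, was at 1.86 (RKN), 2.56 (SKLMS1), 24.3 (SKN) and 5.83 (SKUT1). FGD4 and TMTC1 were the exceptions among the 15 and were highest in SKUT1. DNA copy number was not analysed here.

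**Figure D3:**
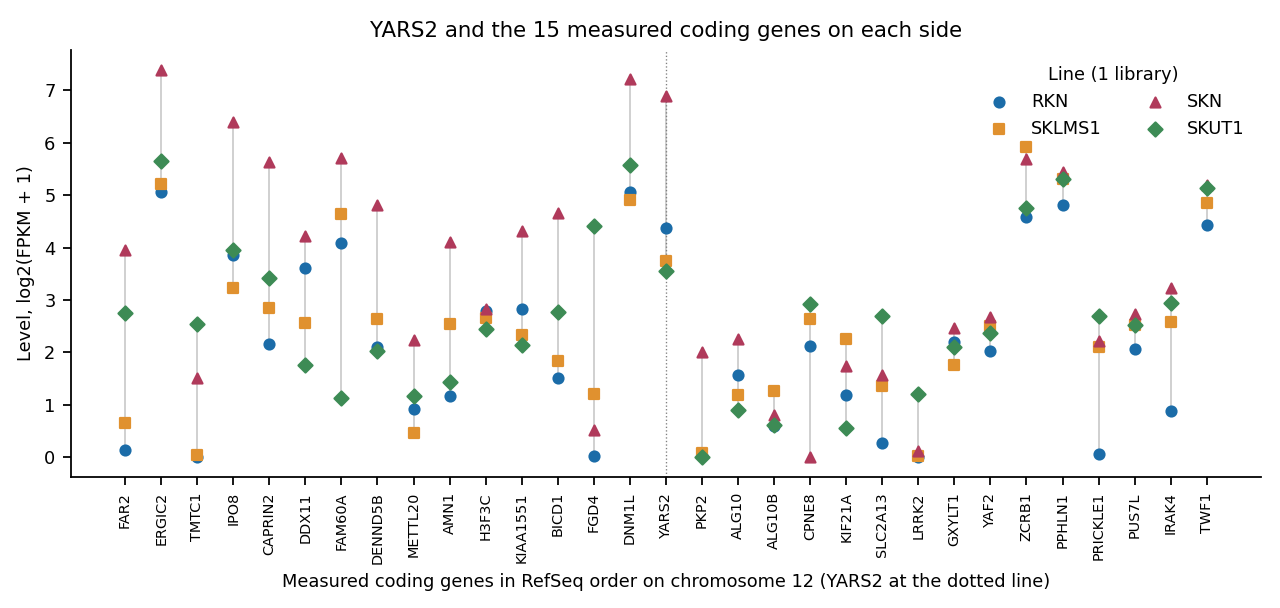
Level, as log2(FPKM + 1), of YARS2 and of the 15 measured coding genes on each side of it in the RefSeq gene order of chromosome 12, with 1 point per line and the end of the short arm to the left. To the left of the dotted line 13 of 15 genes have their highest point in SKN, and to the right 8 of 15 do.

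The same view was taken of the 10 nearest measured coding genes of every synthetase. Over the 136 combinations of a synthetase and a line, the median difference of the neighbours was beyond 0.5 in either direction in 21. Some combinations share neighbours, such as those of HARS and HARS2, and the neighbours of other genes were not examined for comparison. The lowest was -1.22, for the neighbours of NARS on chromosome 18 in SKN, the line in which NARS itself had its low value. Of those 10 neighbours, 6 were at least 2-fold lower in SKN, beside 10.8% of all compared genes. At least 2-fold higher in SKUT1, where NARS was high, were 5, beside 17.9%. TXNL1, which encodes a thioredoxin-like protein, was at 112 (RKN), 77.5 (SKLMS1), 39.3 (SKN) and 96.7 (SKUT1). ATP8B1, a lipid flippase gene next to NARS, was at 12.6 (RKN), 9.08 (SKLMS1), 0.927 (SKN) and 43.4 (SKUT1). The highest neighbour median was 0.88, around SARS in SKUT1, and SARS, the serine enzyme, was at 103 (RKN), 117 (SKLMS1), 131 (SKN) and 225 (SKUT1). The 10 neighbours of SARS were mixed in SKUT1, with 5 at least 2-fold higher and 3 at least 2-fold lower (17.9% and 13.1% of all compared genes). For GARS the median of the neighbours in SKUT1 was -0.13, beside a difference of 1.45 for GARS itself. Of those 10 neighbours, 3 were at least 2-fold higher in SKUT1 and 1 was at least 2-fold lower.

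For 13 amino acids both a cytosolic and a mitochondrial enzyme were among the members, which allowed a ratio within each library. Dividing a column by a single factor, as in rescaling to the same sum, leaves this ratio unchanged. Quantile normalization can change it, and the ratios were not recomputed under it. The cytosolic gene was the higher one in 13 of 13 pairs in RKN, SKLMS1 and SKUT1 and in 12 of 13 in SKN, tyrosine being the exception. The median ratio was 4.69 (RKN), 6.80 (SKLMS1), 4.35 (SKN) and 7.04 (SKUT1). SKUT1 had the highest ratio of the 4 lines in 7 pairs, SKN in 3, SKLMS1 in 2 and RKN in 1. RKN had the lowest ratio in 7 pairs, SKN in 4, SKLMS1 in 1 and SKUT1 in 1. By the median ratio SKN lay slightly below RKN, while RKN was the low end of more pairs than SKN. The phenylalanine pair used FARSA alone. FARSB, the gene for the other chain of that enzyme, was higher in SKN, at 61.3 against 37.7. The order of SKN and RKN by the median ratio, and the lowest line of this pair, depend on that choice.

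**Figure D4:**
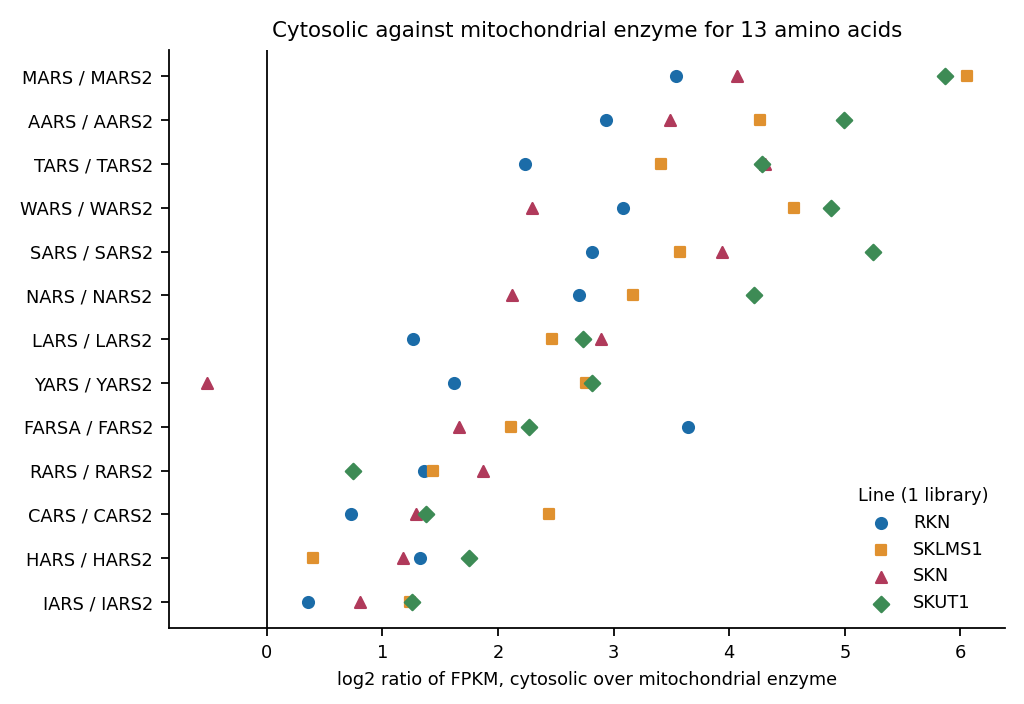
Ratio of cytosolic to mitochondrial FPKM for the 13 amino acids with both enzymes among the members, on a log axis, with 1 point per line. All points but the tyrosine pair of SKN, at 0.697, lie above 1, and methionine reaches 66.5 in SKLMS1.

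The alanine pair, AARS over AARS2, ran from 7.65 in RKN over 11.2 in SKN and 19.2 in SKLMS1 to 31.8 in SKUT1. The serine pair had its ends in the same lines, with a ratio of 7.02 (RKN), 11.9 (SKLMS1), 15.3 (SKN) and 37.9 (SKUT1). Methionine reached the highest ratios of all pairs, at 11.7 (RKN), 66.5 (SKLMS1), 16.8 (SKN) and 58.3 (SKUT1). Most of the difference between lines lay in MARS2, since MARS itself was at 66.7, 93.5, 69.9 and 97.5 in the same order. Isoleucine was the most even pair, with IARS between 1.28 times IARS2 in RKN and 2.38 times in SKUT1. Phenylalanine was the only pair with its highest ratio in RKN, where FARSA was 12.5 times FARS2. It was 4.32 times in SKLMS1, 3.18 times in SKN and 4.81 times in SKUT1. Arginine was the only pair with its lowest ratio in SKUT1, at 1.67.

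The cytosolic phenylalanine enzyme is made of alpha chains from FARSA and beta chains from FARSB in equal number. FARSA was at 64.9 (RKN), 34.0 (SKLMS1), 37.7 (SKN) and 40.0 (SKUT1). FARSB was at 39.1 (RKN), 32.4 (SKLMS1), 61.3 (SKN) and 35.1 (SKUT1). The ratio of the transcripts was 1.66 (RKN), 1.05 (SKLMS1), 0.615 (SKN) and 1.14 (SKUT1), so that RKN and SKN lay on opposite sides of an even ratio.

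HARS and HARS2, the histidine enzymes of the 2 compartments, lie next to each other and are read in opposite directions. Between their RefSeq starts (build GRCh38.p14, chr5:140691371-140691454) lie 84 bases with 9 CG dinucleotides, shown in capitals on the strand of HARS2, since these bases lie directly before both genes.
HARS and HARS2: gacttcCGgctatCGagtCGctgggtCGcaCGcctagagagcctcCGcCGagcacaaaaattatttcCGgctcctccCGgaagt
HARS was at 72.3 (RKN), 36.7 (SKLMS1), 58.2 (SKN) and 53.4 (SKUT1). HARS2 was at 28.8 (RKN), 27.8 (SKLMS1), 25.8 (SKN) and 15.9 (SKUT1). Both were highest in RKN, but HARS was lowest in SKLMS1 and HARS2 in SKUT1, and their ratio lay between 1.32 in SKLMS1 and 3.36 in SKUT1.

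The multisynthetase complex holds the enzymes encoded by DARS, EPRS, IARS, KARS, LARS, MARS, QARS and RARS around 3 non-enzyme scaffold proteins. RKN was the lowest line for 6 of these 8 genes, beside 26.7% of all compared genes, and after rescaling to the same sum for 1 of them (DARS), beside 19.6%. Their median difference as deposited was -0.44 (RKN), 0.06 (SKLMS1), 0.34 (SKN) and -0.04 (SKUT1). KARS, the lysine enzyme, whose gene serves both cytosol and mitochondria, was the exception with its highest value in RKN, at 141, against 91.9 (SKLMS1), 136 (SKN) and 94.7 (SKUT1). RARS, the arginine enzyme, was at 63.6 (RKN), 101 (SKLMS1), 106 (SKN) and 72.0 (SKUT1). QARS, the glutamine enzyme, was at 58.3 (RKN), 65.6 (SKLMS1), 71.2 (SKN) and 45.4 (SKUT1), the only cytosolic synthetase with its lowest value in SKUT1 as deposited. LARS and MARS moved little, with their highest line 1.47 and 1.46 times their lowest. The complex genes shared no common order of lines. None of the 3 scaffold genes had lines 2-fold apart, where 67.2% of all compared genes did. AIMP1 was at 26.2 (RKN), 32.7 (SKLMS1), 25.6 (SKN) and 28.1 (SKUT1). AIMP2 was at 38.9 (RKN), 31.7 (SKLMS1), 45.8 (SKN) and 30.4 (SKUT1). EEF1E1, which encodes the scaffold protein AIMP3, was at 66.1 (RKN), 73.0 (SKLMS1), 45.4 (SKN) and 39.4 (SKUT1).

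The remaining members had no line at 2-fold from the mean of the others. AARS, the alanine enzyme, was at 62.9 (RKN), 119 (SKLMS1), 74.6 (SKN) and 96.0 (SKUT1). IARS, the isoleucine enzyme, was at 66.6 (RKN), 104 (SKLMS1), 77.5 (SKN) and 135 (SKUT1). LARS, the leucine enzyme, was at 43.2 (RKN), 43.9 (SKLMS1), 63.4 (SKN) and 45.8 (SKUT1). In these 3, RKN was lowest as deposited and the highest line was a different one each time, while after rescaling to the same sum RKN was lowest in none of them. On the mitochondrial side, EARS2, the glutamate enzyme, was at 10.9 (RKN), 16.4 (SKLMS1), 9.28 (SKN) and 9.23 (SKUT1). FARS2, the phenylalanine enzyme, was at 5.20 (RKN), 7.88 (SKLMS1), 11.9 (SKN) and 8.31 (SKUT1). NARS2, the asparagine enzyme, was at 12.1 (RKN), 8.35 (SKLMS1), 8.54 (SKN) and 8.05 (SKUT1), so that RKN alone stood above a level common to the rest. WARS2, the tryptophan enzyme, was at 9.41 (RKN), 4.30 (SKLMS1), 10.4 (SKN) and 6.09 (SKUT1). RARS2 was at 24.7 (RKN), 37.3 (SKLMS1), 29 (SKN) and 43.0 (SKUT1), and CARS2 was at 16 (RKN), 11.8 (SKLMS1), 21.8 (SKN) and 28 (SKUT1).

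Other synthetase genes lay outside the members. TARSL2, a second cytosolic threonine enzyme gene, was at 5.19 (RKN), 7.52 (SKLMS1), 3.38 (SKN) and 11.1 (SKUT1). The valine enzymes VARS and VARS2 were listed at 0 in every line. Of the 40 coding genes nearest to VARS in gene order, 38 were also listed at 0 in all 4 lines, and 33 of the 40 nearest to VARS2 were, against 12.5% of 18731 coding genes. These zeros therefore cover a stretch of the genome, the major histocompatibility region of chromosome 6, and give no level for the valine enzymes.

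Cytosolic synthetases were set beside 33 other genes of the amino acid response driven by ATF4. These genes had a median difference of -0.57 (RKN), 0.28 (SKLMS1), -0.43 (SKN) and 0.62 (SKUT1). After rescaling to the same sum these medians were -0.27 (RKN), 0.40 (SKLMS1), -0.49 (SKN) and 0.29 (SKUT1), and after quantile normalization SKUT1 was at 0.28. At least 2-fold higher, as deposited, were 0 (RKN), 8 (SKLMS1), 2 (SKN) and 13 (SKUT1), and at least 2-fold lower were 9, 2, 12 and 1. Over all compared genes the shares in the same order were 11.6%, 10.7%, 9.97% and 17.9% higher. The shares lower were 16.6%, 9.83%, 10.8% and 13.1%. The cytosolic synthetase medians were -0.40 (RKN), -0.01 (SKLMS1), 0.09 (SKN) and 0.02 (SKUT1) as deposited. After rescaling to the same sum they were -0.11 (RKN), 0.09 (SKLMS1), 0.03 (SKN) and -0.31 (SKUT1). RKN was thus low in both lists as deposited, while SKN was low in the response genes alone. SKUT1 was high in the response genes, with a synthetase median near 0 as deposited and the lowest after rescaling. NUPR1, a stress-induced chromatin protein gene, was at 2.47 (RKN), 42.2 (SKLMS1), 0.181 (SKN) and 305 (SKUT1). STC2, which encodes a secreted glycoprotein, was at 2.25 (RKN), 104 (SKLMS1), 27.6 (SKN) and 564 (SKUT1). DDIT4, an inhibitor of mTORC1, was at 79.7 (RKN), 407 (SKLMS1), 119 (SKN) and 26.6 (SKUT1), and so had its lowest value where the list as a whole was high. CEBPB, a partner of ATF4, was at 9.34 (RKN), 48.8 (SKLMS1), 144 (SKN) and 45.0 (SKUT1). ASNS, asparagine synthetase, named here after its values were seen, was at 48.1 (RKN), 104 (SKLMS1), 34.4 (SKN) and 181 (SKUT1). The SKUT1 median was 0.20 when RKN was left out, and the SKLMS1 median 0.06. ATF4 mRNA itself, also named after its values were seen, was at 159 (RKN), 312 (SKLMS1), 408 (SKN) and 227 (SKUT1), an order unlike that of the list. Translation of ATF4 was not measured.

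**Figure D5:**
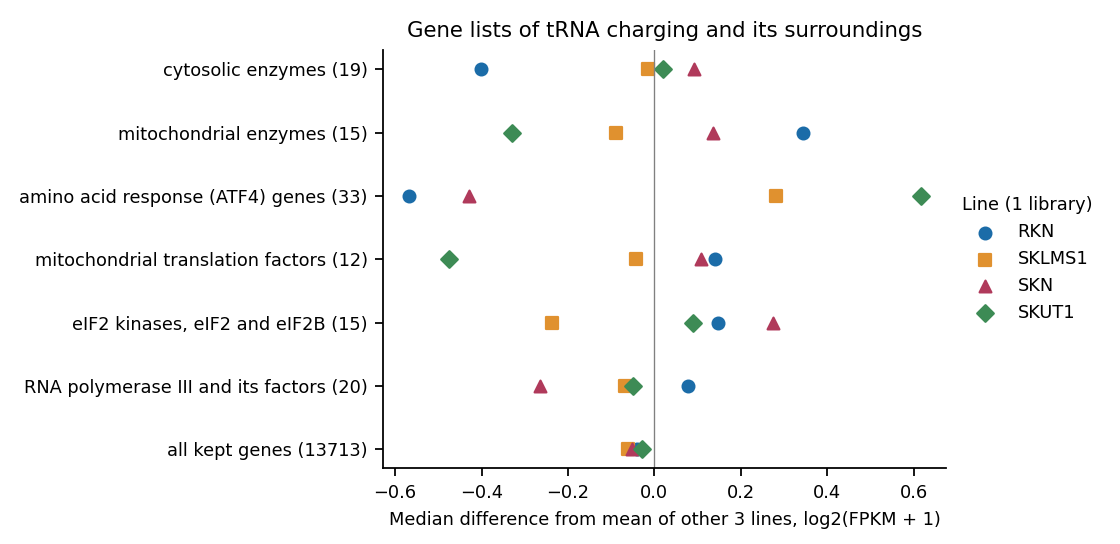
Median difference of each line from the other 3 lines, on the log2(FPKM + 1) scale, for the cytosolic and mitochondrial synthetases and the related gene lists. The ATF4 response list spans -0.57 in RKN to 0.62 in SKUT1, and the cytosolic synthetases -0.40 in RKN to 0.09 in SKN.

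Promoter sequences, from 250 bases before to 50 after the RefSeq start (build GRCh38.p14), were available for 30 of the 34 members, all but DARS, LARS, YARS and AARS2. They were searched on both strands for TGATGNAA, the composite element bound by ATF4 with a C/EBP partner. It was present in 5 of 16 cytosolic promoters, or 31.2%, in 1 of 14 mitochondrial promoters, and in 5 of 26 promoters of the response genes. Of all 35116 promoters 3.62% held it, and of the 15508 promoters matched to compared genes 2.07% did. These background shares count every promoter entry, and some genes have several. For members and response genes a single entry per gene was searched. The 5 cytosolic genes were AARS, GARS, IARS, MARS and NARS, and the mitochondrial one was YARS2. The matches before the start that leave transcribed sequence untouched are shown with their surroundings on the strand of each gene, with the match in capitals, because they let the element be compared between genes with unlike profiles. They lie at chr16:70289660-70289719 for AARS (minus strand), chr7:30594819-30594877 for GARS (plus strand), chr9:92293698-92293736 for IARS (minus strand) and chr12:32756061-32756120 for YARS2 (minus strand).
AARS: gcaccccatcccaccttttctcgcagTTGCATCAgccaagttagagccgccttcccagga
GARS: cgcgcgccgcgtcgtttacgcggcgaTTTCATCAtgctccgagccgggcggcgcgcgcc
IARS: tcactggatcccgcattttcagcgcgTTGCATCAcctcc
YARS2: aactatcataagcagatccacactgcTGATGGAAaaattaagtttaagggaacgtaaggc
In AARS, GARS and IARS the element reads in reverse orientation, beginning 187, 33 and 13 bases before the start, and in YARS2 it reads forward, beginning 197 bases before it. Of the 5 cytosolic genes with the element, 4 had their highest level in SKUT1 (GARS, IARS, MARS and NARS) and AARS had it in SKLMS1, where 8 of 19 cytosolic genes and 30.8% of all compared genes were highest in SKUT1. After rescaling to the same sum MARS was highest in SKLMS1, which left 3. In that scaling 6 of 19 cytosolic genes and 21.9% of all compared genes were highest in SKUT1. The mitochondrial gene YARS2 was highest in SKN. EPRS and WARS, also high in SKUT1, held no match in the single window searched for each. A match describes letters and is not evidence of binding in these cells. The E-box CACGTG was found in 1 of 16 cytosolic and 2 of 14 mitochondrial promoters, beside 9.25% of promoters of compared genes and 7.26% of all. GCGCATGCG, the element of NRF1, a regulator of nuclear genes for mitochondria, was found in 0 of 16 and in 1 of 14, that of MARS2, beside 2.98% of promoters of compared genes and 1.92% of all.

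Mitochondrial translation has its own initiation, elongation and release factors, and 12 of their genes were compared. Their median difference was 0.14 (RKN), -0.04 (SKLMS1), 0.11 (SKN) and -0.47 (SKUT1). SKUT1 was the lowest line for 7 of the 12 (27.9% of all compared genes), as it was for 9 of the 15 mitochondrial synthetases. TSFM, an elongation factor gene, was at 34.9 (RKN), 16.2 (SKLMS1), 17.2 (SKN) and 15.9 (SKUT1). MRRF, the ribosome recycling factor, was at 12.8 (RKN), 14.7 (SKLMS1), 25.9 (SKN) and 9.87 (SKUT1). C12orf65, which encodes a release factor of stalled mitochondrial ribosomes, was at 29.9 (RKN), 17.9 (SKLMS1), 27.8 (SKN) and 10.7 (SKUT1). MTIF3, an initiation factor, went the other way, at 12.1 (RKN), 23.3 (SKLMS1), 19.1 (SKN) and 40.7 (SKUT1). Lines were 2-fold apart in 5 of the 12 translation factor genes, beside 67.2% of all compared genes. The same held for 2 of 9 genes of indirect aminoacylation, formylation and proofreading of mitochondrial and cytosolic tRNA. Of these, GATC, a subunit of the enzyme that makes glutaminyl-tRNA in mitochondria, was at 18.8 (RKN), 12.6 (SKLMS1), 13.5 (SKN) and 7.63 (SKUT1). DTD2, a proofreading deacylase gene, was at 6.46 (RKN), 8.02 (SKLMS1), 7.97 (SKN) and 14.1 (SKUT1). MTFMT, which formylates the initiator tRNA, was at 12 (RKN), 5.87 (SKLMS1), 6.96 (SKN) and 6.77 (SKUT1), a profile with RKN highest, as for LARS2 and NARS2.

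Steps around the synthetases were compared in the same way. For 15 genes of eIF2, its exchange factor and its kinases and phosphatase subunits, the median difference was 0.15 (RKN), -0.24 (SKLMS1), 0.27 (SKN) and 0.09 (SKUT1). EIF2B2, a subunit of the exchange factor, stood out at 103 in SKN, with the other lines between 27.4 and 41.2. For 20 genes of RNA polymerase III and its factors, which transcribe tRNA genes, the median was 0.08 (RKN), -0.07 (SKLMS1), -0.26 (SKN) and -0.05 (SKUT1). For 9 genes of tRNA delivery and export, the median was -0.17 (RKN), -0.36 (SKLMS1), 0.19 (SKN) and -0.09 (SKUT1). Of these, EEF1A2, the muscle and neuron form of the elongation factor that brings charged tRNA to the ribosome, ranged furthest. It was at 5.62 (RKN), 343 (SKLMS1), 1.88 (SKN) and 0.340 (SKUT1). MYC, a transcription factor that drives genes of protein synthesis, was at 85.0 (RKN), 20.5 (SKLMS1), 54.6 (SKN) and 16.6 (SKUT1). RKN had the highest MYC level and, as deposited, the lowest cytosolic synthetase median. After rescaling to the same sum the lowest cytosolic median difference was that of SKUT1, at -0.31, beside -0.11 in RKN. Whether MYC bears on the synthetases was not tested.

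WARS is also induced by interferon gamma, and a list of 14 genes of that response was set beside it. Few of them reached an FPKM of 1 in any line. GBP1, a guanylate-binding protein gene, was at 16.2 (RKN), 14.9 (SKLMS1), 1.91 (SKN) and 11.6 (SKUT1). GBP2 was at 0.583 (RKN), 8.86 (SKLMS1), 2.47 (SKN) and 4.19 (SKUT1). IRF1 was at 9.95 (RKN), 10.0 (SKLMS1), 6.66 (SKN) and 5.69 (SKUT1), with its lowest value in the line where WARS was highest. PSMB8, PSMB9, TAP1 and HLA-DRA were listed at 0 in every line, as were VARS and most genes around it.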

How the data were processed

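Poly(A) RNA of 4 untreated leiomyosarcoma lines, 1 library each, was read as single-end 75 bp reads, per the labels' protocols. Per the submitters' processing notes, STAR and Cufflinks were used with build hg19. Versions, gene annotation, strand setting and the treatment of reads that map to several places were not given in the sources used here. Values deposited by the authors are FPKM per gene symbol. Of 23610 rows, 28 with a symbol turned into a date number and 5 with an error cell were left out.

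FPKM was compared as log2(FPKM + 1) among genes for which any line reached an FPKM of 1, with Python 3.11.15, numpy 2.4.6 and pandas 2.3.3. The fold rule was 2-fold, and the calculation recovered known shifts in simulated data. The members and gene lists were chosen with earlier results of these data known. All members were named, with the scaffold and other synthetase genes, and from each further list up to 4 genes with the widest range over the lines. Some genes that this rule names are not reported here. All 34 members matched a RefSeq entry. Gene order came from RefSeq on GRCh38.p14, a build other than the files'. Reads per library were estimated from low values of single-transcript genes of GENCODE release 29. With the fitted unit, 53.0 to 53.1% of these values came within 0.1 of whole reads, so no counts were recovered. Alternatives were other pseudocounts, column scalings, expression minimums, fold rules, list summaries and left-out lines.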

Additional observations from a re-analysis of the deposited data

How the results depend on the processing

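No paired analysis was possible because each line had 1 library. The 2-fold calls kept their direction under the other pseudocounts and column scalings. List medians near 0 could change sign. The cytosolic median difference went from -0.01 to 0.09 in SKLMS1 and from 0.02 to -0.31 in SKUT1 after rescaling to the same sum. Of 154 alternative values of the principal results, 137 stayed within the tolerance set for them. The difference between the cytosolic and the mitochondrial median, on the log2 scale, ran from 1.83 to 3.54 over 36 alternative values, including those without YARS2, an alternative chosen after seeing the data. After rescaling to the same sum (TPM), the cytosolic median difference was -0.11 in RKN and -0.31 in SKUT1, and the mitochondrial one was 0.64 in RKN and -0.66 in SKUT1. This rescaling moved the median of all genes by 0.28 in RKN and -0.29 in SKUT1. In SKUT1 the cytosolic value was -0.21 after quantile normalization and 0.34 as a mean over the list. With each comparison line left out in turn, the cytosolic value ran from -0.51 to -0.28 in RKN, -0.018 to 0.27 in SKLMS1, -0.06 to 0.20 in SKN and 0.10 to 0.16 in SKUT1. The mitochondrial value ran from 0.19 to 0.51 in RKN, -0.18 to 0.01 in SKLMS1, -0.09 to 0.23 in SKN and -0.62 to -0.23 in SKUT1.

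Of 15 calls at 2-fold, 7 higher and 8 lower, a 4-fold rule left 1 higher and 0 lower, and comparison with the median of the other lines gave 5 lower. With a line left out, the counts ran from 4 to 8 higher and from 5 to 10 lower. The lowest counts came without SKUT1 (4 higher) and without SKN (5 lower). Of the 15 calls, 7 stayed past 2-fold whichever comparison line was left out, and 8 did under all 3 scalings. The count of 18 synthetases with lines 2-fold apart became 9 with a pseudocount of 5 and 1 under a 4-fold rule, and ran from 9 to 16 with a line left out, 9 both without RKN and without SKUT1. The causes of these shifts were not tested. Reads were estimated for MARS2 alone, which has the lowest mean level, and the spread between cultures of a line is unknown.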
